A study of Homo sapiens with 19 samples.

Results

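Monocytes and macrophages carry a recognisable set of proteins for sensing, killing and clearing microbes, and 9 genes that encode such markers were followed here: CD14, MPEG1, S100A8, S100A9, S100A12, FCN1, VCAN, CD163 and MRC1. They were picked by name, as 9 of the 20033 protein-coding genes of GENCODE release 44 on hg38, with earlier results of these data known, so the shares over all genes given beside their counts are a description and not a test. Every deposited peak within 10 kb of the transcription start site (TSS) or over the gene body was taken. The cells were MOLM-13, a human acute myeloid leukaemia line, and the assay was CUT&RUN, in which an antibody guides a nuclease to release the chromatin that bears a mark. Of 19 libraries, 12 were used: 2 from cells given 0.1 µM Corin for 24 h and 2 from cells given the vehicle DMSO for 24 h, for each of the marks H3K27ac, H3K4me2 and H3K4me3. The DMSO libraries are labelled with the same 0.1 µM, whose meaning for a vehicle is unclear. No cells of these groups received ATRA (all-trans retinoic acid). Not analysed here were 7 libraries: 4 of cells given ATRA together with Corin, 2 of IgG and 1 of LSD1. No IgG library was therefore compared here, and whether the authors' peak calling used one as its control is not given in the sources used here. All libraries come from 1 cell line, and nothing in the labels says that replicates were separate cultures, so p-values measure only the spread between these samples.

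H3K4me2 and H3K4me3 are methylations of histone H3 found at promoters and, for H3K4me2, also at enhancers, while H3K27ac is an acetylation of active promoters and enhancers. The enzyme LSD1 removes H3K4me2 and works in the CoREST complex beside histone deacetylases, which remove acetylation. Corin inhibits both activities. In blood progenitors, LSD1 and CoREST are brought to myeloid genes by repressors such as GFI1, and the factors PU.1, C/EBP and RUNX1 are the best known activators of the monocyte programme. The comparison addressed where the marks lay at these genes after CoREST inhibition.

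The sequences below lie at the peaks on which the results turn. S100A8 (chr1:153391074-153391323, minus strand), S100A9 (chr1:153357604-153357853, plus strand) and S100A12 (chr1:153375622-153375871, minus strand) are shown by the 250 bases upstream of their TSS, as RefSeq gives them on GRCh38.p14. The H3K4me2 region of S100A8 reached only to chr1:153391127, so most of its printed stretch, the GAGGAA match included, lay outside the peaks. For MPEG1, 205 bases of hg38 are shown (chr11:59216809-59217013, minus strand) that 3 peaks share, H3K4me2 of both Corin libraries and H3K27ac of Corin replicate 2. For CD163, 189 bases of hg38 are shown (chr12:7512555-7512743, minus strand), which also lay under 3 peaks, H3K27ac of both Corin libraries and H3K4me2 of Corin replicate 1. None of the 5 stretches overlaps an annotated exon. Each is written 5′ to 3′ along its gene, and capitals mark matches on either strand to GAGGAA (PU.1 and other ETS factors), TTGCNNAA (C/EBP), TGTGGT (RUNX) or AAATCA (GFI1).
S100A8 upstream: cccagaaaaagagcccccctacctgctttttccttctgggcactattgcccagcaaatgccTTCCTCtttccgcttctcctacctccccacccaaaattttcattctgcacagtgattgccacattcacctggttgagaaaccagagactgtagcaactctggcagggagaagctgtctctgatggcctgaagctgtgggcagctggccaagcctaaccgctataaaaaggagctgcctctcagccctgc
S100A9 upstream: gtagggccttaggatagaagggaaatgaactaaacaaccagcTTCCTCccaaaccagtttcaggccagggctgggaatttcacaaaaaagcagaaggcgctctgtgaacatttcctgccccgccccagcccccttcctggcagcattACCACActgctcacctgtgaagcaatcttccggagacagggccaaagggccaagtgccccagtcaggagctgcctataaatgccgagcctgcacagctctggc
S100A12 upstream: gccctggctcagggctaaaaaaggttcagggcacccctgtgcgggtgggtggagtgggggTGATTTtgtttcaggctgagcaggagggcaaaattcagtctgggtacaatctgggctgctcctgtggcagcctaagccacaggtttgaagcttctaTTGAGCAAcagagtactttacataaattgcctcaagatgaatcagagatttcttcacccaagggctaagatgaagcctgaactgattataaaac
MPEG1 upstream site: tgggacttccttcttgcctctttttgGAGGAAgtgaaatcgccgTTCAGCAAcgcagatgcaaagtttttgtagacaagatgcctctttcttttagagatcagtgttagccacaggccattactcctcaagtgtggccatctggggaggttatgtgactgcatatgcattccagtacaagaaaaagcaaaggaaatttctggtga
CD163 upstream site: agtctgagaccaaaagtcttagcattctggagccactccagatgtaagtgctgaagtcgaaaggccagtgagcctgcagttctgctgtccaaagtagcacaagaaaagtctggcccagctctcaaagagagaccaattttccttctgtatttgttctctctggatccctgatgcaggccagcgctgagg
With positions counted back from the TSS and given for the first base as printed, GAGGAA matched S100A8 at -189 and S100A9 at -208. S100A9 also held a RUNX match at -103. S100A12 held a C/EBP match at -94 and a GFI1 match at -190. The MPEG1 site held GAGGAA at base 27 and a C/EBP match at base 45, counted from its printed start, and the CD163 site held no match. Of the RefSeq promoters not printed, those of CD14 and FCN1 held GAGGAA, at -96 and -12, and that of VCAN held no match. The CD163 promoter, which lay under no peak, held GAGGAA at -182, a C/EBP match at -211 and a GFI1 match at -8. No printed match overlaps another. Of the 35107 other RefSeq promoters, 23.6% held GAGGAA in the same 250 bases, 9.05% TTGCNNAA and 11.6% AAATCA, and 3854 of them held TGTGGT. In 205-base windows centred on all 41587 H3K27ac regions the shares were 21.7% for GAGGAA and 8.97% for TTGCNNAA. These are letter matches and do not show binding. A RefSeq promoter was found for 7 of the 9 genes; MPEG1 and MRC1 were the others.

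The 12 lists held 63 peaks at the 9 genes, most of them H3K4me2 peaks of Corin libraries. H3K4me2 gave 17 and 15 peaks in the Corin libraries against 4 and 6 in the DMSO libraries. H3K27ac gave 4 and 8 against 0 and 1. H3K4me3 gave 3 and 2 against 2 and 1. The whole lists were also longer after Corin, with 41152 and 40042 H3K4me2 peaks against 30896 and 32299, 34424 and 30029 H3K27ac peaks against 17599 and 19995, and 11757 and 11883 H3K4me3 peaks against 11104 and 11343. Fewer peaks in a list and less signal at a gene cannot be told apart without reads, and of read depth only a labelled minimum of 5000000 reads per sample is known. All 6 genes of a check for a myeloid line (CD33, SPI1, CEBPA, FLT3, HOXA9, MEIS1) had peaks of each mark in both DMSO libraries, and the 6 T cell genes (CD3D, CD3E, CD3G, CD2, CD5, CD28) had none in any of the 12 lists.

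**Figure D1:**
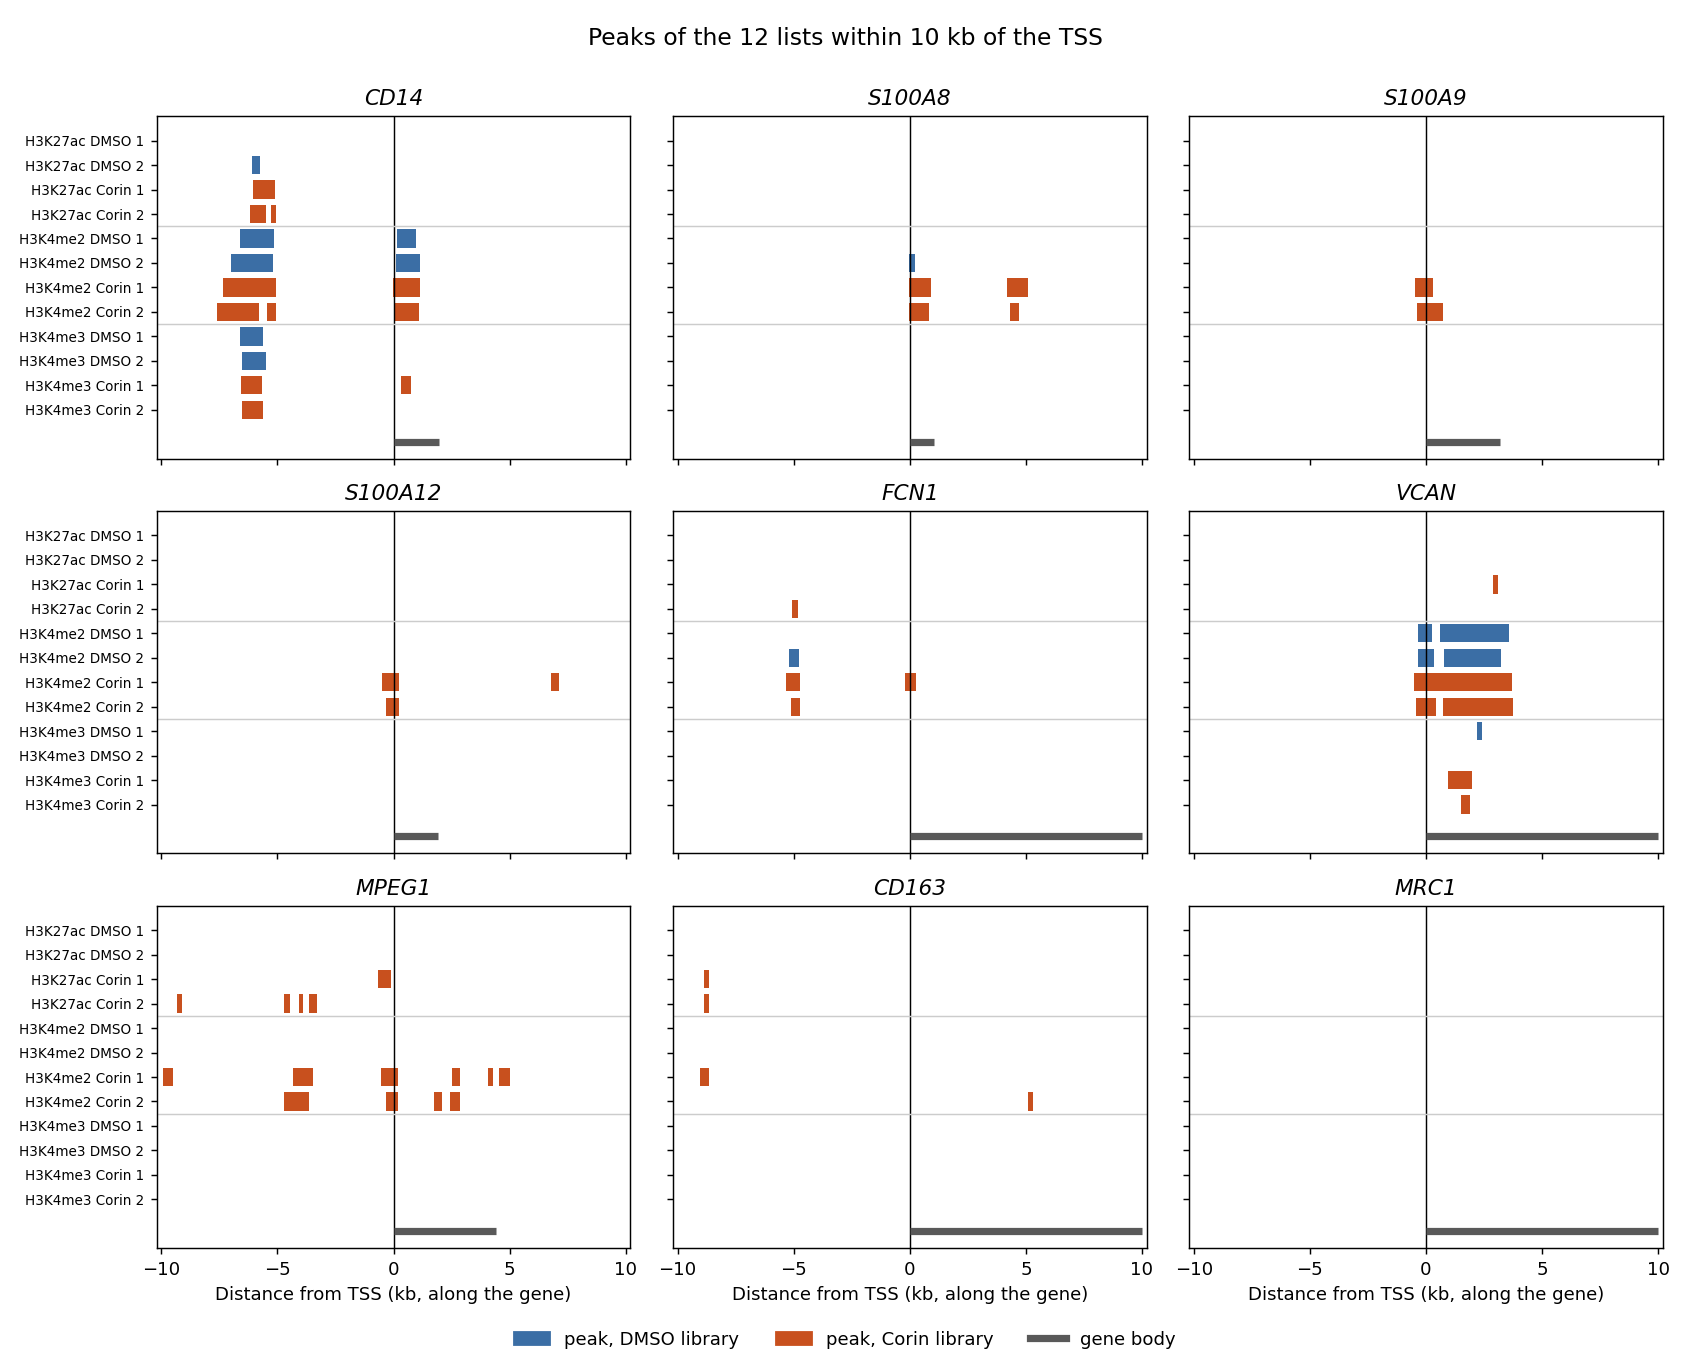
Peaks at the 9 genes in each of the 12 lists (rows), by distance from the TSS in kb along the gene (horizontal axis); blue bars are peaks of DMSO libraries, orange bars peaks of Corin libraries and the grey bar the gene body, cut at 10 kb. CD14 and VCAN have H3K4me2 peaks in all 4 libraries, while MPEG1, S100A9, S100A12 and CD163 have peaks only in Corin rows and MRC1 has none.

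Coverage was measured as the bp under peaks within 10 kb of the TSS, a window of equal length for every gene. For H3K4me2, 1 of the 8 genes with a peak, MPEG1, passed the test at an adjusted p below 0.05 (limma, Benjamini-Hochberg over 14079 genes), and 22 of all 14079 genes tested were called higher, 0.156%. None of these genes was called lower. With libraries of the same number paired, 4 of the 8 passed (MPEG1, S100A8, S100A9, S100A12), against a share of 4.62% over all genes (651). No label says that a shared number pairs libraries, so paired values are given only beside the unpaired ones. MPEG1, S100A9 and S100A12 had 0 bp in both DMSO libraries and were tested only because of their Corin peaks, and with no such filter the unpaired adjusted p of MPEG1 was 0.23 in limma. In 7 of the 8 genes with a peak both Corin libraries lay above both DMSO libraries for H3K4me2, as they did in 39.5% of the 14079 genes with a peak, and in 0 of the 8 both lay below (3.83% of the 14079). In 4 of the 7 (S100A9, S100A12, MPEG1, CD163) neither DMSO library had a peak, so they entered the count only through Corin peaks. The median difference over the 9 genes was 786 bp for H3K4me2, 100 bp for H3K27ac and 0 bp for H3K4me3, against 56.5, 0 and 0 bp over all 20033 genes. At a matched number of peaks per list these medians were 385.5, 0 and 0 bp for the 9 genes and 0 bp for each mark over all genes, and the Corin libraries lay above both DMSO libraries for H3K4me2 in 3 of the 7 members that still had a peak (31.3% of 13809 genes).

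**Figure D2:**
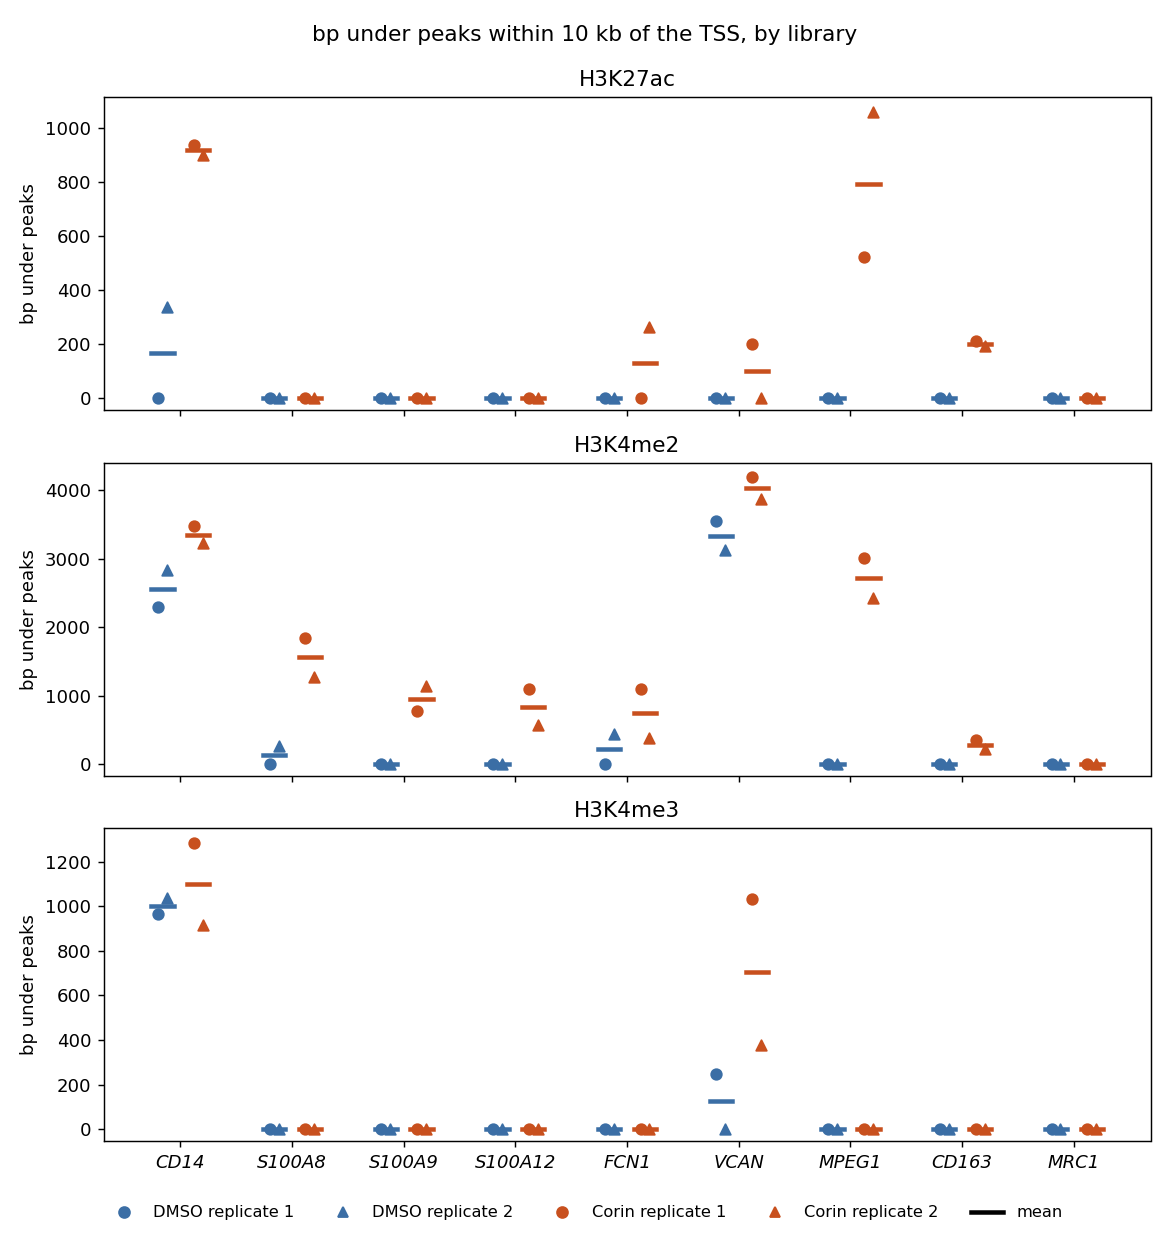
bp under peaks within 10 kb of the TSS (vertical axis, separate scale for each mark) for the 9 genes, with 1 point per library, circles for replicate 1, triangles for replicate 2, blue for DMSO, orange for Corin and a bar at the mean of 2 libraries. For H3K4me2, MPEG1 goes from 0 in both DMSO libraries to 3009 and 2426 bp, whereas CD14 and VCAN are above 2000 bp in all 4.

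S100A8 and S100A9 encode the subunits of calprotectin, a calcium- and zinc-binding protein that phagocytes carry in bulk, and S100A12 encodes a related calgranulin. The 3 genes are neighbours in the S100 cluster of chromosome 1 and shared no peak. They behaved alike in kind: H3K4me2 peaks stood over the start of each gene in both Corin libraries, and no H3K27ac or H3K4me3 peak lay in the window of any of them in any library.

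S100A8 (chr1:153390032-153391073, minus strand) had 1846 and 1269 bp of H3K4me2 in Corin replicates 1 and 2 and 0 and 259 bp in DMSO replicates 1 and 2. The means were 1557.5 ± 408 and 129.5 ± 183 bp (SD, n = 2 each), and both Corin values lay above both DMSO values. The difference of 1428 bp (SE 252) did not pass limma's test (adjusted p = 0.0992), and did with the replicate number as a block (limma, adjusted p = 0.0047). Larger rises were found in 666 of the 14079 genes, 4.73%. The bp came from 2 regions. The promoter region, chr1:153390179-153391127, spanned most of the short gene and was covered over 949, 866, 0 and 259 bp in Corin replicates 1 and 2 and DMSO replicates 1 and 2. The other, chr1:153385996-153386892, lay past the end of the gene, in no annotated gene, with 897 and 403 bp in the Corin libraries and none in the DMSO libraries. The score, the authors' own value per peak, was 433 and 331 at the promoter in the Corin lists and 102 in DMSO replicate 2. These were the highest-scoring H3K4me2 peaks of the 3 calgranulin genes in their lists, with 23.2% and 31.6% of the Corin lists scoring higher.

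S100A9 (chr1:153357854-153361023, plus strand) had 768 and 1139 bp of H3K4me2 after Corin and 0 bp in both DMSO libraries. The whole of it was 1 region over the TSS, chr1:153357383-153358602, which takes in the upstream sequence printed above. The means were 953.5 ± 262 and 0 bp (SD, n = 2), and the difference had an SE of 188. It did not pass limma's test unpaired (adjusted p = 0.115) and did in the paired fit (limma, adjusted p = 0.0161).

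S100A12 (chr1:153373711-153375621, minus strand) had 1096 and 566 bp after Corin and again 0 bp in both DMSO libraries. Its promoter region, chr1:153375368-153376138, held 771 and 566 bp, and 325 bp more lay past the gene's end in Corin replicate 1 alone. The means were 831 ± 375 and 0 bp (SD, n = 2), and the difference had an adjusted p of 0.178 in limma's unpaired test and 0.0352 in the paired limma fit. All DMSO values of S100A9 and S100A12 were 0, so neither gene's groups overlapped. In DMSO replicate 2 the H3K4me2 peak nearest to either gene was the one at the S100A8 start, 32983 bp from the S100A9 TSS and 15216 bp from the S100A12 TSS. In DMSO replicate 1 the nearest was 124533 bp from the S100A8 TSS. For the other marks the distance hardly differed between treatments: the nearest H3K27ac peak was 124367 to 124451 bp from the S100A8 TSS in the 4 libraries, and the nearest H3K4me3 peak was 144390 to 144725 bp away.

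A gain of H3K4me2 at the promoter, that is, a peak within 1 kb of the TSS in both Corin and in neither DMSO library, was seen in 96 of the 20033 protein-coding genes, 0.479%. S100A9, S100A12 and MPEG1 were 3 of them, and at a matched number of peaks none of the 3 had H3K4me2 left in Corin replicate 2. Of the 96 promoters, 76 (79.2%) had no H3K27ac or H3K4me3 peak in any of the 8 libraries of those marks, and S100A9 and S100A12 were among these. S100A8 was kept out by its 259 bp peak in DMSO replicate 2. The opposite pattern, a loss after Corin, was found at 10 promoters (0.0499%) and at none of the 9 genes. CD14 and VCAN had a promoter peak of H3K4me2 in all 4 libraries, like 56.0% of all genes. CD163 and MRC1 had none in any, like 38.9%. Promoters without H3K27ac in any library were those of 8 of the 9 genes, all but MPEG1, and 56.6% of all genes. Promoters without H3K4me3 were those of 7 of the 9, all but CD14 and VCAN, and 50.3% of all genes.

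MPEG1 (chr11:59208510-59212927, minus strand) encodes perforin-2, a pore-forming protein that macrophages use against engulfed bacteria. It had 3009 and 2426 bp of H3K4me2 after Corin and 0 bp in both DMSO libraries. The means were 2717.5 ± 412 and 0 bp (SD, n = 2), and H3K4me2 at MPEG1 rose by 2717.5 bp (SE 260; limma, adjusted p = 0.0381; 8.63e-05 paired). Among the 14079 genes tested, 65 (0.462%) had a larger rise. The nearest DMSO peaks of the mark were 34774 and 39369 bp from the TSS.

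The call did not hold in every setting. It was lost on leaving out any of the 4 libraries (limma, adjusted p from 0.286 to 0.638), at a matched number of peaks (0.744), with a score of at least 100 (0.213), and in the 4 further settings given at the end. The direction was upward in all of them.

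The H3K4me2 bp at MPEG1 fell into 7 regions, 3 of which were present in both Corin libraries. These were the promoter, chr11:59212738-59213461 with 710 and 516 bp, an upstream region, chr11:59216408-59217642 with 864 and 1076 bp, and a region over the gene's exons, chr11:59210052-59210504 with 352 and 453 bp. The other 4 were each in 1 Corin library, and 1 of them, chr11:59207918-59208367, overlapped the neighbouring gene DTX4. Scores of the 10 peaks ran from 61 to 189, below the median scores of 232 and 218 of the 2 Corin lists.

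H3K27ac at MPEG1 was 525 and 1062 bp after Corin and 0 bp in both DMSO libraries. The Corin libraries had it at different places, replicate 1 at the promoter (chr11:59213053-59213577) and replicate 2 in 4 smaller peaks whose near edges lay 3318 to 9107 bp upstream. The upstream site printed above is 1 of these. The difference of 793.5 bp (SE 246) had an adjusted p of 0.151 in limma's unpaired test and 0.027 in the paired limma fit. The difference was 1062 bp without Corin replicate 1, 525 bp without Corin replicate 2 and 793.5 bp without DMSO replicate 1 or DMSO replicate 2. Such fits leave a lone library in a group. With both DMSO values at 0 bp, a fit with a lone Corin library has no spread of the gene's own, so it does not test the rise. At a matched number of peaks the difference was 167 bp, with 0 and 334 bp after Corin (limma, adjusted p = 0.783), and with a score of at least 100 it was 280.5 bp. No H3K4me3 peak lay in the window.

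For H3K27ac as a whole, 0 of 10532 genes passed limma's adjusted test (0% called, smallest adjusted p 0.115), 2430 had an unadjusted p below 0.05, and 1428 (13.6%) were called higher in the paired fit. Both Corin libraries lay above both DMSO libraries in 54.6% of these genes, all of which have a peak, and in 3 of the 5 members with a peak, MPEG1, CD163 and CD14. That count is near the share over all genes with a peak and is no result about the members. Of the 11143 genes with no H3K27ac peak in the window in either DMSO library, 724 (6.5%) had a peak in both Corin libraries. The members in that state were 2 of 8, MPEG1 and CD163. The same count for H3K4me2 was 182 of 6369 genes (2.86%) and 4 of 5 members, S100A9, S100A12, MPEG1 and CD163, with MRC1 the exception. At a matched number of peaks the H3K4me2 count was 0 of 5 members and 68 of 6425 genes (1.06%), and the H3K27ac count 0 of 8 members and 219 of 11331 genes (1.93%).

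CD14 encodes the co-receptor that hands bacterial lipopolysaccharide to TLR4. With VCAN it was a gene of the set that was marked in both vehicle libraries, and its window held 2295 and 2836 bp of H3K4me2 in DMSO and 3474 and 3229 bp after Corin. The difference of 786 bp (SE 313) did not pass limma's test (adjusted p = 0.34; 0.31 paired), and was 515.5 bp without DMSO replicate 1. The region over the gene itself, chr5:140632545-140633727, had 1183 and 1030 bp after Corin and 803 and 1009 bp in DMSO, so the groups were nearly touching there. The remaining bp (chr5:140638745-140641307) lay upstream, at the start of the neighbouring gene TMCO6 and over NDUFA2. Within 5 kb of the TSS, which leaves that part out, the H3K4me2 difference was 200.5 bp (limma, adjusted p = 0.78).

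All H3K27ac in the CD14 window also lay at TMCO6 (chr5:140638761-140639896). There were 939 and 901 bp after Corin and 0 and 339 bp in DMSO, a difference of 750.5 bp (SE 248; limma, adjusted p = 0.161; 0.0663 paired). No H3K27ac peak touched the CD14 promoter or gene body in any library. H3K4me3 in the window was 1285 and 917 bp after Corin and 966 and 1037 bp in DMSO, which overlap, and only 406 bp of it, in Corin replicate 1, lay on CD14 itself. Without that library the difference of 99.5 bp became -84.5 bp.

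CD163, the scavenger receptor for haemoglobin-haptoglobin complexes, and MRC1, the mannose receptor, are used as markers of macrophages. CD163 (chr12:7470811-7503893, minus strand) had no peak within 1 kb of its TSS. Its window held 212 and 193 bp of H3K27ac after Corin and 0 bp in both DMSO libraries (difference 202.5 bp, SE 133; limma, adjusted p = 0.379). Both peaks were at the upstream site printed above, and this was the only H3K27ac region gained at the 9 genes, 1 of 9 regions, while 11.5% of all 41587 H3K27ac regions were gained. The paired limma fit gave an adjusted p of 0.519. The difference was 193 bp without Corin replicate 1, 212 bp without Corin replicate 2 and 202.5 bp without DMSO replicate 1 or DMSO replicate 2. At a matched number of peaks, or with a score of at least 100, CD163 had no H3K27ac in any library. H3K4me2 covered 353 and 215 bp after Corin and 0 bp in DMSO (284 bp, SE 144; limma, adjusted p = 0.461). Here the libraries had different places, replicate 1 the upstream site and replicate 2 an intron (chr12:7498604-7498818). Scores of these 4 peaks were 53 to 81, near the lists' minimum of 50.

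MRC1 (chr10:17809348-17911164, plus strand) had no peak of any mark in any of the 12 lists, either in the window or over its 101817 bp. The nearest peaks of the 3 marks were 161612 to 164896 bp from its TSS in the 12 libraries.

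FCN1 encodes ficolin-1, a secreted lectin that starts complement activation on microbial sugars. Its H3K4me2 was 1094 and 386 bp after Corin and 0 and 435 bp in DMSO, so the groups overlapped (difference 522.5 bp, SE 287; limma, adjusted p = 0.504). The difference was 168.5 bp without Corin replicate 1, 876.5 bp without Corin replicate 2, 305 bp without DMSO replicate 1 and 269.5 bp at a matched number of peaks. An upstream region whose near edge was 4749 bp from the TSS, chr9:134922661-134923248, was there in both Corin libraries and in DMSO replicate 2 with 588, 386 and 435 bp. A peak of 506 bp over the TSS was found only in Corin replicate 1. H3K27ac gave a single peak of 264 bp, at the upstream region in Corin replicate 2 (limma, adjusted p = 0.565). The H3K27ac difference was 132 bp, and 264 bp without Corin replicate 1.

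VCAN encodes versican, a large chondroitin sulfate proteoglycan that classical monocytes express. It had the widest H3K4me2 of the 9 genes in all 4 libraries, 4196 and 3881 bp after Corin and 3554 and 3123 bp in DMSO, in 1 region from the promoter into the gene (chr5:83471123-83475362). The difference of 700 bp (SE 325) did not pass limma's test (adjusted p = 0.417; 0.435 paired), although the groups did not overlap. The region's strongest peaks scored 1174 and 1104 after Corin and 637 and 1241 in DMSO, and at most 5.07% of their lists scored higher. H3K4me3 at VCAN was weak, covering 1030 and 380 bp after Corin against 250 and 0 bp in DMSO (difference 580 bp, SE 242; limma, adjusted p = 0.755), all in an intron. It was 255 bp without Corin replicate 1 and 905 bp without Corin replicate 2. With a score of at least 100 only the DMSO peak was left, and the difference was -125 bp. H3K27ac was 200 bp in Corin replicate 1 and 0 bp in the other 3 libraries (limma, adjusted p = 0.622). The H3K27ac difference was 100 bp, and 200 bp without Corin replicate 2.

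H3K4me3 thus had bp at CD14 and VCAN alone among the 9 genes. Over all genes 0 of 11193 (0% called) passed limma's adjusted test for this mark, with 763 at an unadjusted p below 0.05, and 7 (0.0625%) passed in the paired fit, neither CD14 nor VCAN among them. Both Corin libraries lay above both DMSO libraries in 25.7% of these genes, all of which have a peak, and in 1 of the 2 members with a peak, VCAN.

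**Figure D3:**
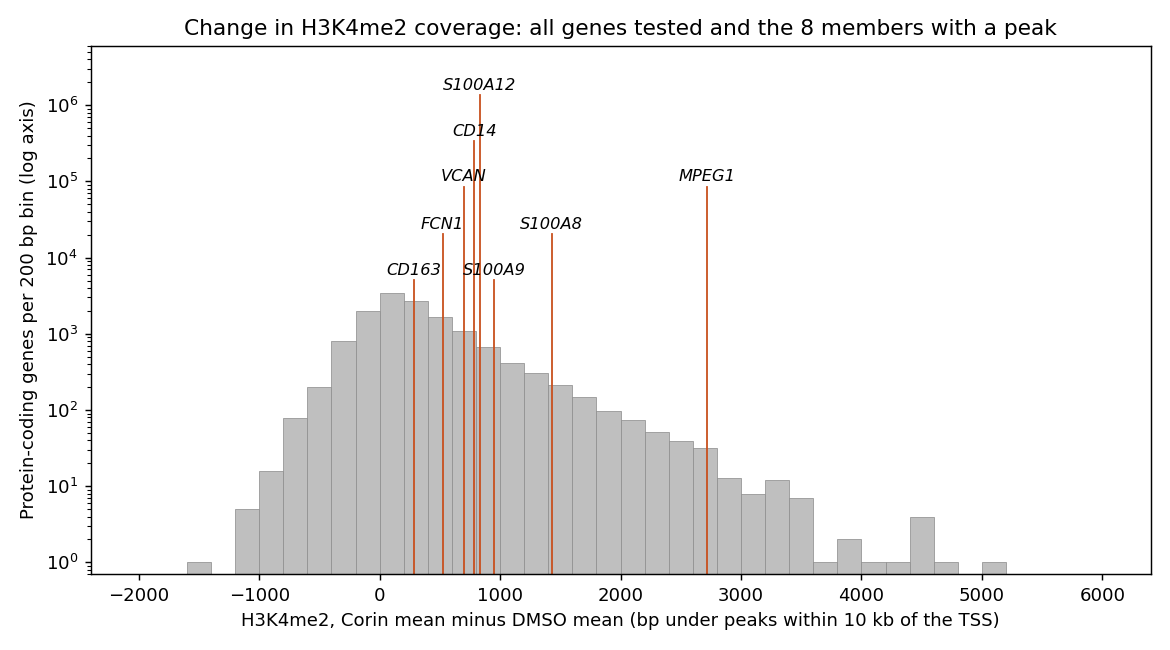
Number of protein-coding genes (vertical axis, log scale) in 200 bp bins of the H3K4me2 difference, Corin mean minus DMSO mean in bp within 10 kb of the TSS (horizontal axis), over the 14079 genes tested; orange lines mark the 8 genes with a peak, and their heights carry no value. All 8 lie above 0, from 284 bp for CD163 to 2717.5 bp for MPEG1, and 78.0% of all genes tested lie above 0 too.

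Over the gene body, coverage was taken as the percent of the gene's length under peaks, so that genes of different length can be set side by side. H3K4me2 covered 85.89% and 78.5% of S100A8 after Corin and 0% and 22.74% in DMSO. This difference, 70.8 percentage points (SE 9.35), was the largest rise among the 14339 genes tested, for a gene of 1042 bp, but its adjusted p in limma was 0.2 (0.392 paired). CD14 was covered over 58.59% and 52.2% after Corin and 40.7% and 51.14% in DMSO. MPEG1 followed with 16.68% and 23.18%, S100A9 with 9.37% and 23.63%, and S100A12 with 13.29% and 11.98%, each against 0% in both DMSO libraries. The adjusted p of S100A12 was the smallest of the set (limma, 0.0928). From equal numbers of top-scoring peaks, the difference was 1.99 percentage points for MPEG1, 4.68 for S100A9 and 6.65 for S100A12. VCAN, at 110686 bp, was covered over 2.52% to 3.34% in all 4 libraries.

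For H3K4me2, both Corin libraries covered more of the body than both DMSO libraries in 6 of the 8 genes with a peak there and in 39.7% of the 14339 genes tested. For 3 of the 6 (MPEG1, S100A9, S100A12) both DMSO values were 0%, so they entered this count only through Corin peaks. None of the 9 genes passed the gene body test for any mark. Over all genes 0 of 14339 were called higher (0% called) and 2 lower (0.0139%) for H3K4me2 by limma, with 2081 at an unadjusted p below 0.05. The counts were 0 of 10813 for H3K27ac (2004 unadjusted) and 0 of 11164 for H3K4me3 (753 unadjusted).

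Regions were then formed by merging the 4 lists of a mark. Of 19 H3K4me2 regions at the 9 genes, 6 were gained (both Corin and neither DMSO library), 3 were in all 4 libraries and 0 were lost, against 9.64% gained and 0.158% lost over all 42429 regions. The 6 were 3 at MPEG1, the promoters of S100A9 and S100A12 and the region downstream of S100A8. For H3K4me3, 1 of 4 regions was gained, in VCAN, against 1.49% overall. Its peaks scored 88 and 50 in Corin replicates 1 and 2. DMSO replicate 1 had a separate intron peak nearby, chr5:83473798-83474047, that scored 101. When the 3 marks were summed per gene and the treatment permuted within each mark, the exact two-sided test gave p = 0.0278 for CD14 and for VCAN and 0.0556 for MPEG1 and for CD163, and 0.333 for S100A8, S100A9, S100A12 and FCN1. Adjusted over 14226 genes these were 0.205, 0.244 and 0.556 by exact permutation. None of the genes tested passed (0% called), and 2571 (18.1%) had an unadjusted p below 0.05. Most of the CD14 sum of 1636 bp lay at TMCO6: within 5 kb of the TSS it was 403.5 bp, with an exact p of 0.167. At a matched number of peaks the exact p was 0.0556 for CD14, 0.167 for VCAN and 0.5 for MPEG1. With peaks of 1 mark only, as at the 3 calgranulin genes, 2 libraries against 2 cannot give less than 0.333.

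Because the Corin lists are longer, the H3K4me2 values were taken again from the 30896 top-scoring peaks of each list. The genes parted into those that kept their values and those that did not. S100A8 kept all of them, at 1846 and 1269 bp after Corin and 0 and 259 bp in DMSO, as did CD14 and VCAN. MPEG1 dropped to 1134 and 0 bp after Corin, S100A9 to 768 and 0 bp and S100A12 to 771 and 0 bp, with DMSO at 0 bp for each. FCN1 had 588 and 386 bp against 0 and 435 bp, and CD163 had none left. Gained H3K4me2 regions were then 1 of 10 at the 9 genes, the one downstream of S100A8, against 3.91% of all regions.

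**Figure D4:**
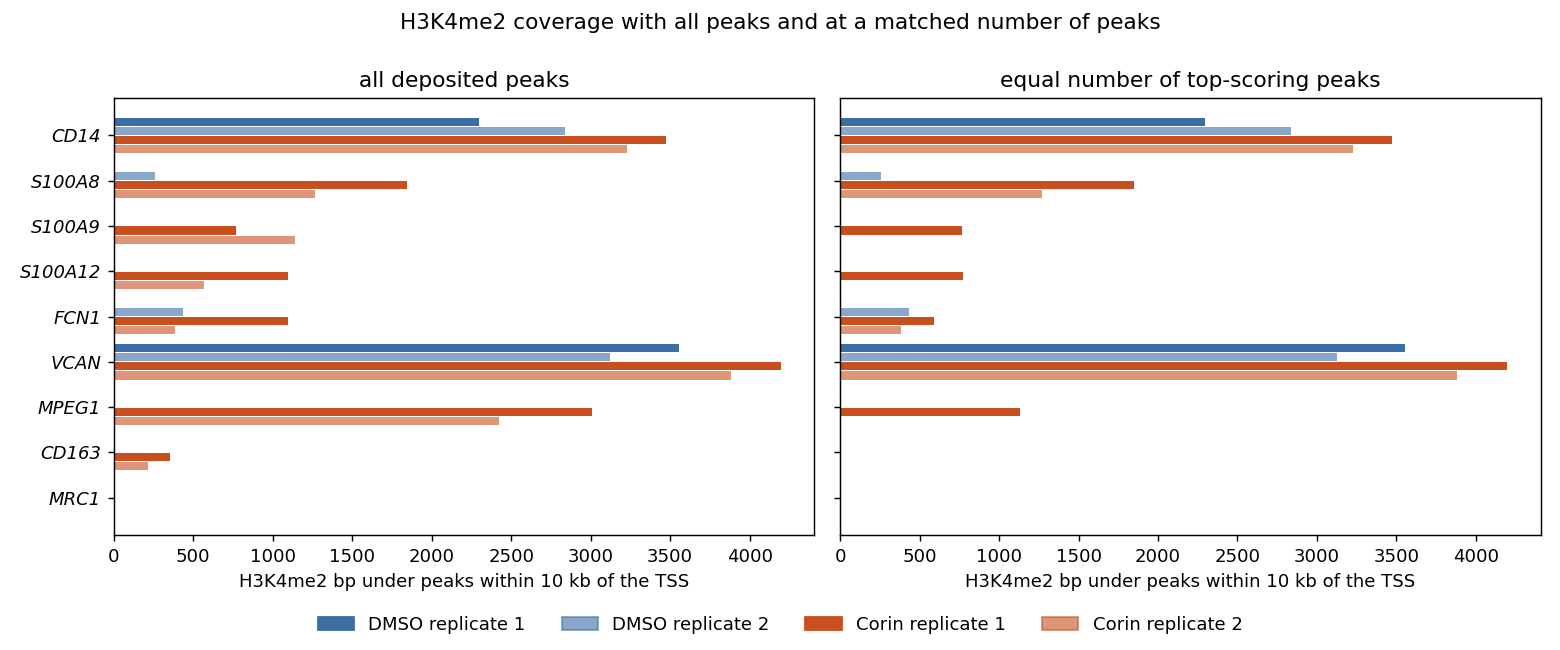
H3K4me2 bp within 10 kb of the TSS (horizontal axis) for the 9 genes, with a bar per library, from all deposited peaks (left) and from an equal number of top-scoring peaks per list (right); blue shades are DMSO, orange shades Corin. S100A8, CD14 and VCAN look the same on both sides, while S100A9, S100A12 and MPEG1 lose their bar of Corin replicate 2.

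The genes with the most similar coverage over the 12 libraries were sought for each member, as the smallest mean absolute difference in window bp. For MPEG1 this was ITGAM, which encodes the integrin CD11b of myeloid cells, at 83.8 bp, followed by SPATA12 at 155 bp. S100A12 was nearest to MYOZ1 (14.2 bp), S100A9 to TFCP2L1 (18.1 bp) and S100A8 to FAM184A (47.4 bp). CD163 had MCCD1 and PLIN2 at 27.0 bp each, FCN1 TSPAN7 at 43.4 bp, VCAN PLXNC1 at 116 bp and CD14 TAF1B at 162 bp. Genes with little coverage lie close to each other by this measure.

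A further 34 monocyte and macrophage genes were counted beside the 9. For H3K4me2, 27 had a peak, and 1 of these passed limma's unpaired test (ITGAM; 0.156% of all genes tested) and 6 the paired fit (4.62%). None was called lower unpaired, and in 22 of the 27 both Corin libraries lay above both DMSO libraries (39.5% of all genes tested). ITGAM had 3039 and 2536 bp after Corin and 0 bp in both DMSO libraries (difference 2787.5 bp, SE 246; limma, adjusted p = 0.0381), so it too was tested only because of its Corin peaks, as were 3 others of the 27. Of the 6 paired calls, 2 had no peak in either DMSO library, as had 2 of the 22 separated genes. H3K4me2 peaks stood in both DMSO libraries at 23 of the 34, and among the 9 at CD14 and VCAN. Among the 23 was CCR2, the receptor for the chemokine CCL2. It had 9739 and 7515 bp in the Corin libraries against 5075 and 5020 bp (limma, adjusted p = 0.128; 0.00383 paired). The median H3K4me2 difference of the 34 was 307.5 bp. For H3K27ac, 22 had a peak, 0 passed limma's test unpaired and 5 did paired (13.6% of all genes tested), and 17 of the 22 were separated upward (54.6%). A peak stood in both DMSO libraries at 10 of the 22 and in neither at 11. Among those 11 were 7 of the 17 and 2 of the 5 paired calls, which were counted only because of Corin peaks. For H3K4me3, 11 had a peak, 0 passed unpaired and 1 did paired (0.0625%), and 10 of the 11 were separated upward (25.7%). Of the 10, 1 had no peak in either DMSO library and entered the count only through Corin peaks. LYZ, which encodes lysozyme, was separated by the most, with 2736 and 2487 bp after Corin against 603 and 770 bp in DMSO (limma, adjusted p = 0.0909 unpaired and 0.0461 paired).

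The other 13 annotated S100 genes of chromosome 1q21 were counted too. For H3K4me2, 12 of the 13 had a peak, 9 of them in both DMSO libraries. Of the 12, 0 passed limma's test unpaired and 4 did paired (4.62% of all genes tested), and 9 were separated upward (39.5%). S100A6, for example, had 5652 and 5522 bp after Corin and 3960 and 3901 bp in DMSO (limma, adjusted p = 0.115), and its window overlaps those of its neighbours.

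Genes of other blood cells were counted in the same way. Among 11 neutrophil genes, H3K4me2 had a peak at 7, in both DMSO libraries at 6, and was separated upward at 6 of the 7, led by PRTN3 at 11698 and 10424 bp after Corin against 6354 and 9040 bp in DMSO (limma, adjusted p = 0.212; 0.0231 paired). For the same mark, upward separation was found at 3 of the 6 B cell genes with a peak, beside 39.5% of all genes tested. Of the 3, 1 had no peak in either DMSO library and entered the count only through Corin peaks. Both erythroid genes with a peak, EPOR and KLF1, were separated upward. NPPA, the 1 gene of tissues other than blood with a peak, was not. No gene of these lists passed limma's unpaired test for any mark. The paired fit called higher 2 of 7 neutrophil, 0 of 6 B cell and 1 of 2 erythroid genes for H3K4me2 (4.62% of all genes tested). For H3K27ac these were 1 of 6, 2 of 3 and 0 of 2 (13.6%). Upward separation for H3K27ac was found at 6 of 6, 2 of 3 and 1 of 2, and at NPPA (54.6%). NPPA and 1 of the 6 neutrophil genes had no DMSO peak of that mark and entered only through Corin peaks. The part of these lists in the results at the 9 genes was not tested.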

How the data were processed

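CUT&RUN peak lists of 12 MOLM-13 libraries were used. Per the submitters' processing notes the tools were Trim Galore, Bowtie2, Picard and MACS2 on GRCh38 (hg38); versions, the caller's control and its threshold are not given in the sources used here. Per the labels' protocols the reads were 150 bp paired ends. The authors deposited 1 list per library, with a position and a score per peak; no score is below 50, all are whole numbers, and their definition is not stated. The score was used only to rank, filter or describe peaks within a list. All 292523 peaks fit inside the hg38 chromosomes.

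The bp under peaks were summed per library within 10 kb of the TSS (the 5′ end of the GENCODE 44 gene record), and over the gene body as a percent of its length. Corin was compared with DMSO for each mark with limma 3.58.1 (R 4.3.3; trended empirical Bayes, two-sided), over all protein-coding genes with a peak in at least 1 of the 4 libraries, with Benjamini-Hochberg adjustment and a threshold of 0.05. An exact test of 2 libraries against 2 cannot go below p = 0.333; for the 3 marks combined, every arrangement within marks was used (smallest p 0.00926), as if libraries were independent across marks. Regions were compared by an overlap of at least 1 bp. The limma script was tested on simulated data with known rises. Of rises of 1000 bp it recovered 0% for H3K27ac, 14% for H3K4me2 and 84% for H3K4me3. Of rises of 2000 bp it recovered 10%, 84% and 98%. A test that was not passed therefore does not show the absence of a rise of such a size.

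A Corin and a DMSO library of the same number deviated together from the means of their groups: over genes, r was 0.286 (H3K27ac), 0.31 (H3K4me2) and 0.228 (H3K4me3). These r rest on 2 pairs per mark. With 2 libraries a group, swapping the numbers within a group would only reverse the sign of r, so r does not establish a pairing. No label says what the numbers share either. The paired fit is therefore given only beside the unpaired fit, which is the one reported first. The members and gene lists were chosen with earlier results of these data known. The genes named are the 9 members, at most 3 genes per list and mark with the largest change, and up to 2 genes most like each member.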

Additional observations from a re-analysis of the deposited data

How the results depend on the processing

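No read depth is known, so the absence of a peak does not show the absence of a mark, and 2 libraries a group limit every test. Of 380 values of the 9 genes under alternatives, 351 kept their direction and side of the threshold, 14 passed it anew, 10 no longer passed and 5 changed sign. Fits with a lone library are among the 380. Values with no peak left under a setting are not, such as those of CD163 at a matched number of peaks. Values that kept their direction could still shrink: H3K4me2 at S100A9 fell from 953.5 to 384 bp at a matched number of peaks.

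H3K4me2 genes called higher in the window (22 of 14079) numbered 0 at a matched number of peaks, 0 with a score of at least 100, 2 within 5 kb, 0 without bp near another gene's TSS, 0 on a log2 scale, 651 with the replicate block and 0 to 0 on leaving out a library; 1 was called lower with no filter and 1 with the block. MPEG1 had adjusted p-values in limma of 0.0742 within 5 kb, 0.0898 without bp near another TSS, 0.0887 on the log2 scale and 0.23 with no filter, and stayed called with the canonical TSS (0.0433) and with a peak required in 2 libraries (0.0395). H3K27ac window calls, 0 at first, were 25 higher and 1 lower with no filter, 1428 higher with the replicate block, and 0 to 1337 higher and 0 to 3 lower on leaving out a library. Without Corin replicate 2, the H3K27ac difference of VCAN was 200 bp in the window and 0.181 percentage points over the gene body. That of FCN1 was 264 bp in the window without Corin replicate 1. CD163 passed for H3K27ac with no filter (limma, adjusted p = 0.0455). H3K4me3 window calls were 13 higher and 4 lower with no filter and 7 higher with the block.

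Over the gene body, leaving out a library gave 0 to 1561 genes higher and 0 to 5 lower for H3K27ac. For H3K4me2 the 2 genes called lower became 0 with a score of at least 100, 0 with the block and 0 to 0 without a library, and 31 were higher on a log2 scale, MPEG1 (0.0397) and S100A12 (0.0296) among them. For H3K4me3 the log2 scale gave 7 higher and 4 lower. Gained regions at the 9 genes became 0 for H3K27ac at a matched number and 2 when 50% of a region had to be covered, 1 for H3K4me2 at a matched number, and 0 for H3K4me3 at a matched number, with a score of at least 100 and with 50% covered. The CD14 H3K4me3 difference was -103.5 bp at a matched number and with a score of at least 100, and -84.5 to 283.5 bp on leaving out a library (the lowest without Corin replicate 1); that of VCAN was -125 bp in the window and -0.113 percentage points over the body with a score of at least 100. The cause was not tested. In the fits that leave out a library, the lone library is assumed to vary like the others. Where both libraries of the other group are at 0 bp, the gene's own spread is 0, so a pass there does not test the rise. The combined permutation made 0 calls in any setting, and apart from the calls named here and beside the results the replicate block changed no other call of the 9 genes.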
